A study of Solanum pimpinellifolium with 6 samples.

Results

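The genes described here encode the enzymes that turn phenylalanine into lignin precursors, hydroxycinnamoyl esters and flavonoids, in tomato fruits collected 2 days after flowering. They were chosen by the words of their deposited descriptions (phenylalanine ammonia-lyase, 4-coumarate-CoA ligase, hydroxycinnamoyl and caffeoyl transferases, cinnamoyl-CoA reductase, cinnamyl alcohol dehydrogenase, laccase and the chalcone-to-anthocyanidin enzymes), leaving out glycosyltransferases and cytochrome P450 enzymes. The rule found 242 genes among the 34723 with values. Solyc09g007920 and Solyc10g086180, which were added by identifier, already carried the words of the rule.

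The pathway starts with phenylalanine ammonia-lyase, which takes the amino group off phenylalanine. A hydroxylase of the cytochrome P450 class, which the rule leaves out, then makes coumaric acid. Next, 4-coumarate-CoA ligase loads this acid onto coenzyme A. From coumaroyl-CoA, hydroxycinnamoyl transferases, caffeoyl-CoA O-methyltransferase, cinnamoyl-CoA reductase and cinnamyl alcohol dehydrogenase lead to the alcohols that laccases and peroxidases couple into lignin. Chalcone synthase and chalcone isomerase take the same coumaroyl-CoA into flavonoids. In tomato fruit the best known products are chlorogenic acid, an ester with quinic acid, and the naringenin chalcone and flavonols of the peel.

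RNA was sequenced from Solanum pimpinellifolium accession LA1589, a wild relative of cultivated tomato. Of the 6 libraries, 3 were labelled RNAi line 207, a transgenic line in which the zinc finger gene SlZFP2 is targeted, and 3 were labelled its nontransgenic sibling, with a wild type genotype. All plants were grown in a phytotron, were labelled 2 months old, and gave hand-pollinated fruits 2 days post anthesis. Line 207 is a single transgenic line, and the sources used here do not give the promoter of its silencing construct. The series calls the replicates biological, but whether each came from separate plants or pooled fruits is not given, so p-values measure the spread between these libraries. The extraction label names shoot tips where the sample labels name fruits.

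Values are FPKM, fragments scaled to transcript length and library size. Relative to sibling replicate 1 the other libraries had estimated depths of 0.385 to 0.867, with line 207 replicate 1 the shallowest. These are rough estimates from the most common ratio between low values. That ratio was shared by 38 of 1873 low genes in line 207 replicate 1 and by 85 of 2328 in sibling replicate 2. Correlations of log2 values over genes were 0.779 to 0.86 within groups and 0.694 to 0.755 between them. Solyc07g053570, described as a zinc finger family protein and paired with SlZFP2 from memory of the literature, stood at 2.89, 3.05 and 0.00147 FPKM in the siblings and 10.3, 9.03 and 7.45 FPKM in line 207. The fall that the label implies was thus not seen in the values of this gene (log2 fold change 1.97 ± 0.66 SE, adjusted p = 0.112 by limma). Whether reads from the silencing construct were counted at this gene cannot be told, so these values do not show whether silencing took place. Every direction given here is between the labelled groups. Of the marker lists, 12 of 19 carpel genes and 16 of 19 meristem genes had some value, meaning any value above 0, however small. Meristem genes summed to 220 to 267 FPKM in the siblings and 254 to 325 FPKM in line 207, which overlapped. Of their 12 tested genes none was called by limma, and 2 were lower and 1 higher at an unadjusted p of 0.05 (median log2 fold change -0.71). Carpel genes summed to 699 to 797 FPKM in the siblings and 661 to 896 FPKM in line 207, which overlapped, with 1 of 9 tested genes higher and 1 lower (median log2 fold change 0.44). The higher one, Solyc02g071730, described as AGAMOUS, had means of 21.0 FPKM in the siblings and 71.9 FPKM in line 207 (adjusted p = 0.00877). The lower one, Solyc08g079100, described as a fragment of CRABS CLAW, a carpel regulator, was at 103, 84.1 and 87.3 FPKM in the siblings and at 0.000193, 10.5 and 6.83e-05 FPKM in line 207. The pollen and anther list summed to 1394 to 1622 FPKM in the siblings and 808 to 852 FPKM in line 207, with 4 of 21 tested genes lower and none higher by limma (10 lower and 1 higher at an unadjusted p of 0.05, and 5 lower and 0 higher in the authors' deposited table). It had 7 of its 40 genes at 0 in every library, among them an anther protein and 2 pollen coat-like proteins. Other anther genes of the list had values. Solyc06g007610, described as early tobacco anther 1, had means of 93.8 FPKM in the siblings and 113 FPKM in line 207. Solyc02g078370, described as anther-specific TA-29, had means of 0.883 and 5.48 FPKM (adjusted p = 0.0775 by limma). The gene with the most transcripts, Solyc04g054810, described as a pollen allergen, had means of 829 and 369 FPKM. The chlorophyll a-b antenna list summed to 10513 to 18007 FPKM in the siblings and 1959 to 3514 FPKM in line 207, with 16 of 20 tested genes lower. The part of these differences in the results below was not tested, and fewer cells of a type cannot be told apart from less RNA per cell.

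Of the 242 genes, 81 were listed at 0 FPKM in every library and 48 others had some value but did not reach 1 FPKM in 3 libraries. The remaining 113 were tested with limma on log2(FPKM + 1), where a call means an adjusted p of at most 0.05 over all 15766 genes tested. Transcripts of 13 were lower in the libraries labelled line 207, and those of 8 were higher. The lower calls made 11.5% of the tested members against 5.04% of all tested genes, and the higher calls made 7.08% against 5.01%. Among the higher calls, Solyc03g036470 and Solyc10g076670 were at 0 FPKM in every sibling library. They reached 1 FPKM only in the line 207 libraries, so they passed the filter only through the group where they are high. Counting them in the higher share is therefore no support for a rise among members. Calls in either direction made 18.6% of members and 10.1% of all genes. These shares of all tested genes are the background for the counts of each family and gene list. The median log2 fold change was -0.52 over the members and -0.09 over all tested genes, and 78 of the 113 members had a value below 0.

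Groups that did not overlap were counted as well. In 31 members (27.4%) every library labelled line 207 was below every sibling library, as in 17.6% of all tested genes. In 16 members (14.2%) every library labelled line 207 was above, as in 15.6% of all tested genes, so the higher share was near the background. In either direction, the groups were apart in 41.6% of members and 33.2% of all tested genes. In the authors' deposited table, 66 members had been tested, and at a q-value of 0.05 that table had 35 lower and 10 higher. These were 53% and 15.2% of its tested members, against 15.6% lower, 12.8% higher and 28.4% either way over all its tested genes. Of the 21 limma calls, 19 were also called in the authors' deposited table, and the other two had no test there.

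The calls rested on few libraries. Only 5 of the 21 calls held with each of the 6 libraries left out in turn, and 6 were lost in all of these fits. The lower count fell to 3 without sibling replicate 2, 7 without sibling replicate 3, and 6, 5 and 6 without line 207 replicates 1, 2 and 3. It was 15 without sibling replicate 1. The higher count was 4 without any 1 sibling library, and 3, 2 and 3 without line 207 replicates 1, 2 and 3. Counts over all tested genes fell too. With 1 library left out, 795 lower became 282 to 559, and 790 higher became 310 to 660. Among the members not called, 18 were still apart and lower and 8 apart and higher, with adjusted p from 0.0816 to 0.993 over all 92.

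**Figure D1:**
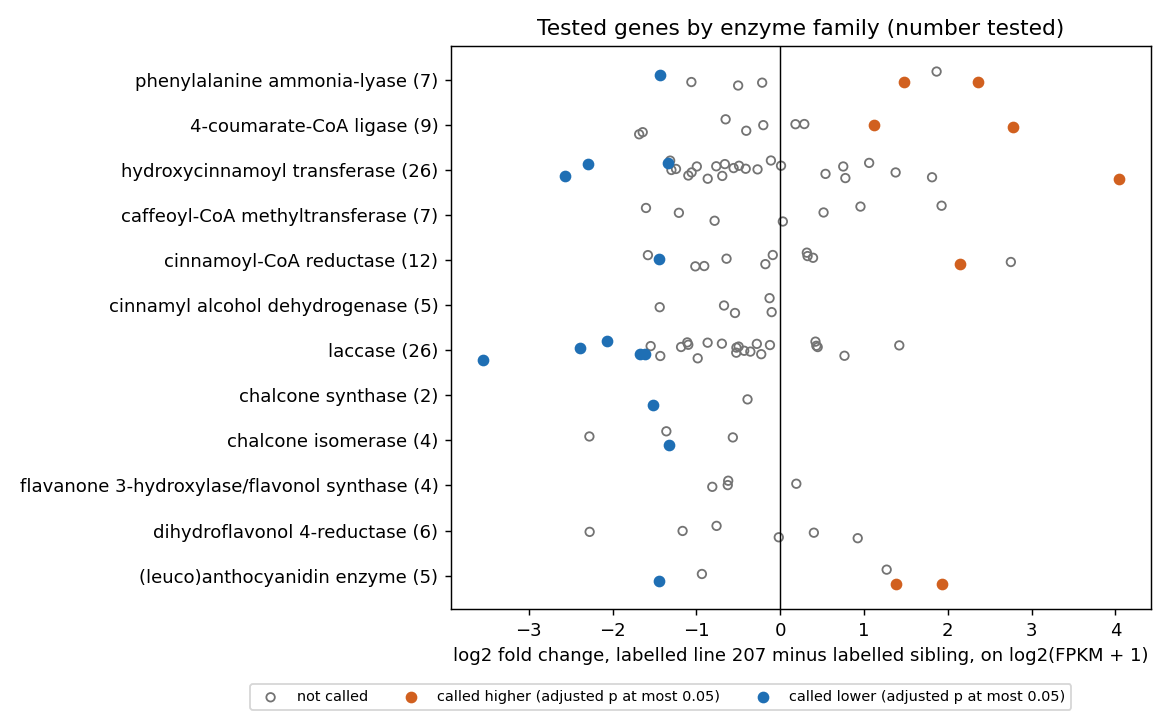
Log2 fold change (labelled line 207 minus labelled sibling, on log2(FPKM + 1)) of each tested gene, by enzyme family in pathway order, with called genes filled. All 5 called laccases lie left of 0, the 4 tested chalcone isomerases all lie left of 0, and phenylalanine ammonia-lyase has calls on both sides.

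The entry enzyme, phenylalanine ammonia-lyase, changed in composition between the labelled groups. It had 16 genes, of which 7 were at 0 throughout, 7 were tested, 2 were called higher and 1 lower, and at an unadjusted p of 0.05 there were 3 higher and 1 lower. The authors' deposited table had the opposite balance, with 1 higher and 3 lower; the 3 lower include Solyc09g007900 (q-value 0.0236) and Solyc05g056170 (q-value 0.000439), which limma did not call. Summed transcripts of the family were 346, 576 and 637 FPKM in the siblings and 367, 370 and 410 FPKM in line 207. The sums overlapped, because sibling replicate 1 lay below all of the line 207 libraries. The gene with the most transcripts, Solyc09g007900, was at 153, 246 and 280 FPKM in the siblings and 147, 168 and 149 FPKM in line 207, and these ranges overlapped too. Its log2 fold change was -0.50 ± 0.24 SE (adjusted p = 0.247). It was called lower without sibling replicate 1 (adjusted p = 0.035, from 0.035 to 0.483 over the libraries left out).

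Solyc10g086180 fell. It stood at 139, 252 and 248 FPKM in the siblings and 68.9, 62.9 and 99.2 FPKM in line 207, with no overlap. The means were 213 ± 63.7 and 77.0 ± 19.5 FPKM (SD, n = 3 each), 2.76-fold lower, with a log2 fold change of -1.43 ± 0.29 SE and an adjusted p of 0.0268 by limma. With a library left out its adjusted p ran from 0.0144 to 0.0939, and the call was lost without sibling replicate 2 or 3 or line 207 replicate 1 or 2. Solyc09g007920 moved the other way, at 38.3, 40.3 and 56.9 FPKM in the siblings and 125, 120 and 133 FPKM in line 207. It rose 2.79-fold, from 45.2 ± 10.2 to 126 ± 6.82 FPKM (SD, n = 3 each; log2 fold change 1.48 ± 0.19 SE; adjusted p = 0.00728 by limma). This call held whichever library was left out, with adjusted p up to 0.0343.

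Shares within the family show the same shift without reference to the other genes of a library. Solyc10g086180 made 40.2%, 43.6% and 38.8% of the family's summed FPKM in the siblings and 18.8%, 17.0% and 24.2% in line 207. Solyc09g007920 made 11.1%, 7.0% and 8.9% in the siblings and 34.0%, 32.3% and 32.5% in line 207. The share of Solyc09g007900, the nearest neighbour of Solyc09g007920 by identifier number among the tested members, overlapped between groups, at 42.6% to 44.1% and 36.4% to 45.3%. Ammonia-lyase genes are close copies of each other in many plants, and FPKM estimates can divide reads between copies, so values of single genes are uncertain.

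The remaining ammonia-lyase call lay near the limit of detection. Solyc03g036470 was listed at 0 FPKM in every sibling library and at 4.51, 3.49 and 4.49 FPKM in line 207. It passed the filter of 1 FPKM in 3 libraries only through line 207, so its call adds no support for a rise. Its log2 fold change of 2.36 ± 0.45 SE depends on the 1 FPKM added before the logarithm (adjusted p = 0.0215). The call was lost with each library left out, at adjusted p from 0.0545 to 0.0769.

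**Figure D2:**
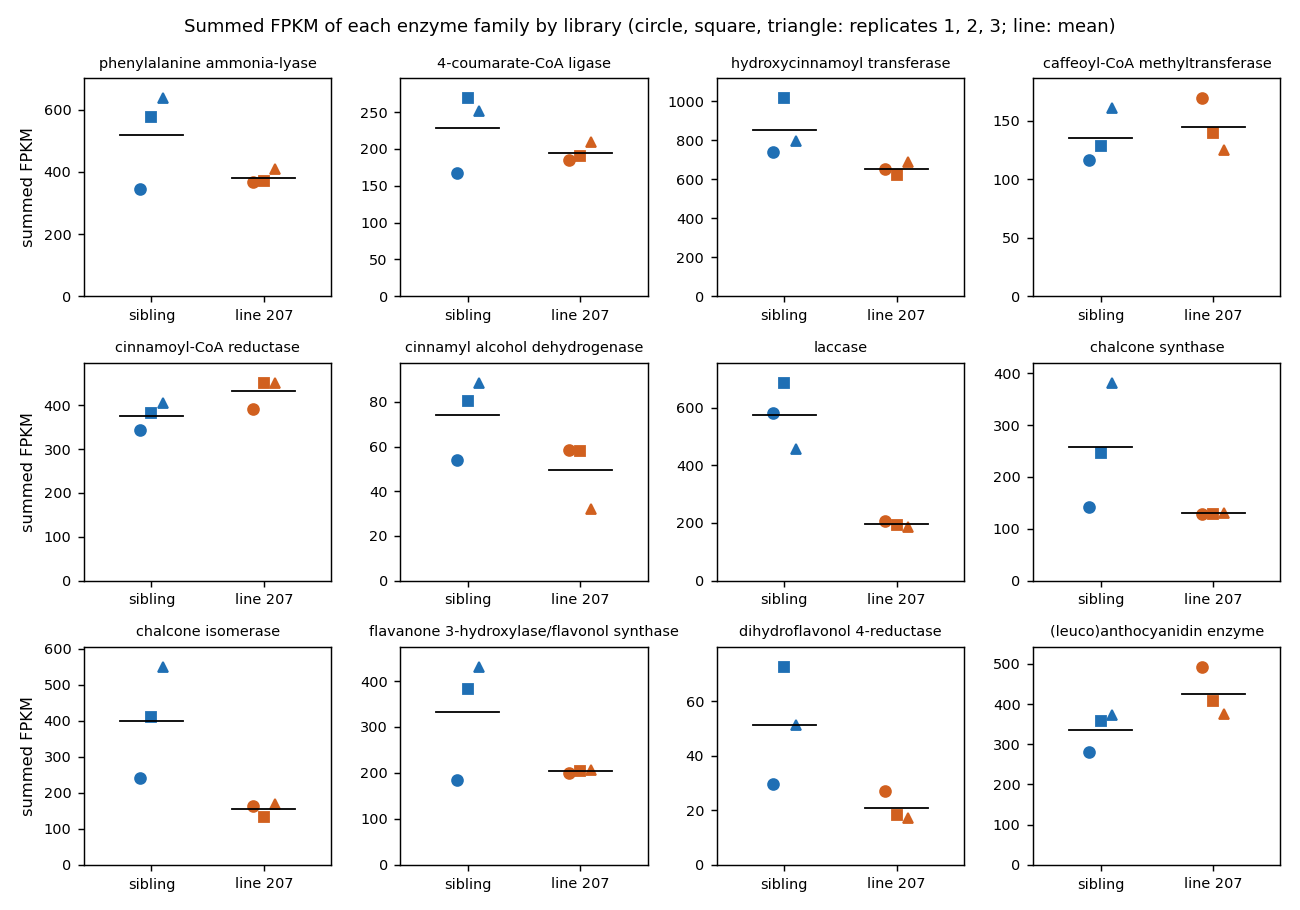
Summed FPKM of all members of each of 12 enzyme families in each library, with 3 labelled sibling and 3 labelled line 207 libraries and a line at each group mean; each axis starts at 0. Laccase sums of 455 to 687 FPKM in the siblings lie above 187 to 208 FPKM in line 207, while sibling replicate 1 (circle) is the lowest sibling library in 11 panels.

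For 4-coumarate-CoA ligase, the activating enzyme, 9 of 13 genes were tested, of which 2 were called higher and none lower, while 2 passed an unadjusted p of 0.05 in each direction and the authors' deposited table had 2 higher and 1 lower. Family sums of 167, 269 and 251 FPKM in the siblings and 185, 191 and 210 FPKM in line 207 overlapped. Solyc03g117870, the gene with the most transcripts, was at 54.1, 113 and 93.2 FPKM in the siblings and 49.7, 70.5 and 69.5 FPKM in line 207 (log2 fold change -0.41 ± 0.30 SE; adjusted p = 0.455). The groups overlapped for this gene.

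The 2 ligase genes called higher had fewer transcripts. Solyc11g069050 was at 29.1, 17.5 and 27.6 FPKM in the siblings and 57.2, 44.4 and 60.4 FPKM in line 207. Its means, 24.7 ± 6.34 and 54.0 ± 8.48 FPKM (SD, n = 3 each), differed 2.18-fold (log2 fold change 1.12 ± 0.26 SE; adjusted p = 0.0405), and the call was lost with each library left out (adjusted p from 0.0541 to 0.12). Solyc06g035960, a ligase-like gene whose substrate is not annotated, was at 1.82, 2.23 and 0.00178 FPKM in the siblings and 13.8, 10.6 and 16.1 FPKM in line 207. No overlap was seen for either gene. The log2 fold change of Solyc06g035960 was 2.78 ± 0.59 SE (adjusted p = 0.0309, and 0.0536 to 0.097 with a library left out, so also lost each time).

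Hydroxycinnamoyl transferases join the activated acids to shikimate, quinate or amines, and both the strongest rise of the pathway and 3 falls lay among them. The family had 51 genes, 26 of them tested, with 3 called lower and 1 higher, against 5.04% lower and 5.01% higher over all tested genes. At an unadjusted p of 0.05 it had 8 lower and 1 higher, and 9 lower and 3 higher by q-value in the authors' deposited table. Transcripts of genes described as quinate or shikimate/quinate transferases summed to 615, 818 and 655 FPKM in the siblings and 326, 335 and 338 FPKM in line 207, which did not overlap. Of the 34 genes so described, 17 were tested and 14 of these had log2 fold changes below 0 (median -0.86), with 8 apart and lower and none apart and higher. Over all tested genes, 17.6% were apart and lower and 15.6% apart and higher. Genes described as N-hydroxycinnamoyl/benzoyltransferases, 8 in all with 2 tested, summed to 2.77, 17.9 and 16.2 FPKM in the siblings and 109, 135 and 197 FPKM in line 207. Solyc02g093180 alone made 95.8, 132 and 196 FPKM of the line 207 sums, and the other tested gene, Solyc05g052670, had a log2 fold change of -0.27 (adjusted p = 0.858).

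Both quinate transferases of a pair that differ by 20 in identifier number fell. Solyc12g096770 was at 130, 166 and 161 FPKM in the siblings and 20.2, 31.2 and 43.7 FPKM in line 207. The means of 153 ± 19.6 and 31.7 ± 11.8 FPKM (SD, n = 3 each) were 4.81-fold apart (log2 fold change -2.29 ± 0.29 SE; adjusted p = 0.00632). Solyc12g096790 was at 59.3, 76.7 and 64.4 FPKM in the siblings and 9.03, 14.0 and 8.79 FPKM in line 207. With means of 66.8 ± 8.95 and 10.6 ± 2.93 FPKM (SD, n = 3 each) it was 6.3-fold lower (log2 fold change -2.57 ± 0.25 SE; adjusted p = 0.00346), the smallest adjusted p of all members. The groups were far apart for both, and both calls held with each library left out, at adjusted p up to 0.0329 and 0.0208. A quinate transferase is known from tomato to make chlorogenic acid. The descriptions do not say whether either gene of this pair, or another of the annotated genes, does so.

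The amide-type transferase Solyc02g093180, described as N-hydroxycinnamoyl/benzoyltransferase 3, rose more than any other member. It was at 2.76, 10.3 and 12.5 FPKM in the siblings and 95.8, 132 and 196 FPKM in line 207. Means of 8.5 ± 5.09 and 141 ± 50.8 FPKM (SD, n = 3 each) gave a 16.6-fold difference (log2 fold change 4.04 ± 0.52 SE; adjusted p = 0.00684), and the call held with each library left out (adjusted p up to 0.0353). Enzymes of this name are known from carnation, where they acylate anthranilate in defence.

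Solyc08g007210, described as shikimate/quinate transferase-like, was at 46.7, 49.7 and 35.0 FPKM in the siblings and 16.8, 16.4 and 16.2 FPKM in line 207. It fell 2.66-fold from 43.8 ± 7.78 to 16.4 ± 0.326 FPKM (SD, n = 3 each; adjusted p = 0.0138), and the call was lost without sibling replicate 2 (adjusted p = 0.0613, from 0.024 to 0.0613 over the libraries left out). The member of the family with the most transcripts did not pass the test. This gene, Solyc07g005760, is described as a shikimate/quinate transferase, which does not say whether it serves lignin or chlorogenic acid. It was at 128, 93.5 and 75.2 FPKM in the siblings and 89.7, 87.7 and 90.4 FPKM in line 207, inside the sibling range (log2 fold change -0.11 ± 0.21 SE, adjusted p = 0.785). Without sibling replicate 1 its sign turned, to 0.0895.

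**Figure D3:**
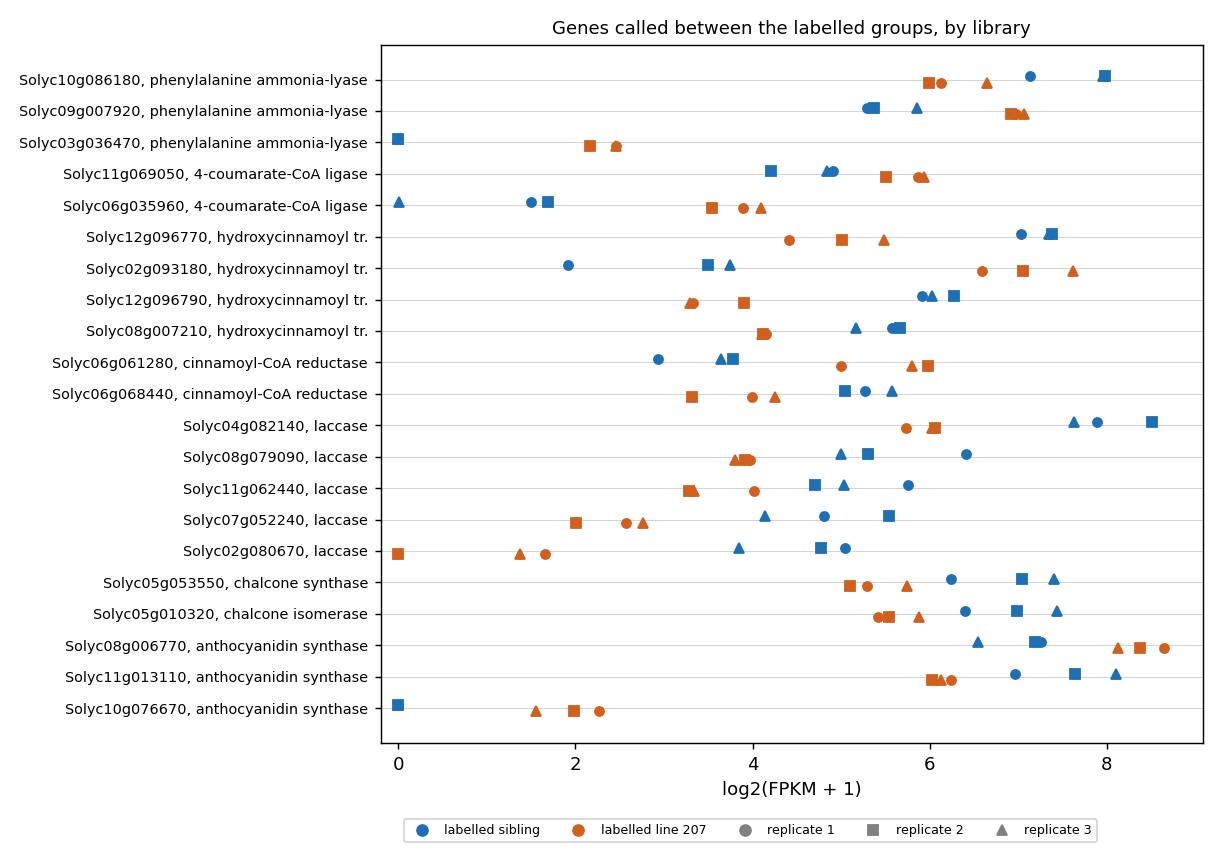
Level of each of the 21 called genes in each library as log2(FPKM + 1), in pathway order, by labelled group (colour) and replicate number (shape). The groups do not overlap for any of the 21, and the widest gap is that of Solyc02g093180, at 2.76 to 12.5 FPKM in the siblings and 95.8 to 196 FPKM in line 207.

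Among the enzymes that build the lignin monomers, limma called 2 genes. Caffeoyl-CoA O-methyltransferase, which adds a methyl group to the ring, had 28 genes, 20 of them at 0 in all libraries, and none of the 7 tested was called by limma; 2 passed an unadjusted p of 0.05 in each direction, and the authors' deposited table also had 2 in each. Its sums were 116, 128 and 160 FPKM in the siblings and 169, 139 and 125 FPKM in line 207. Solyc04g063210, with the most transcripts, was at 41.4, 26.7 and 26.1 FPKM in the siblings and 82.5, 44.6 and 60.2 FPKM in line 207 (log2 fold change 0.96 ± 0.29 SE; adjusted p = 0.0881). Its groups did not overlap, but line 207 replicate 2 lay close to sibling replicate 1. No description contained the word caffeic, so the caffeic acid methyltransferases have no member here.

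Cinnamoyl-CoA reductase commits the CoA esters to lignin alcohols. All 15 of its genes had some value, 12 were tested, and 1 was called in each direction, with 2 in each at an unadjusted p of 0.05 and 1 in each in the authors' deposited table. Family sums overlapped, at 343, 382 and 405 FPKM in the siblings and 393, 452 and 451 FPKM in line 207. The 2 calls differed in annotation, 1 being described as a reductase and 1 as reductase-like. Solyc06g068440, the reductase, was at 37.5, 31.9 and 46.8 FPKM in the siblings and 14.9, 8.95 and 18.0 FPKM in line 207. It was 2.78-fold lower, at 14.0 ± 4.6 against 38.7 ± 7.49 FPKM (SD, n = 3 each; log2 fold change -1.44 ± 0.31 SE; adjusted p = 0.0329), and the call was lost with each library left out (adjusted p from 0.0505 to 0.107).

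The reductase-like gene Solyc06g061280 was at 6.64, 12.7 and 11.5 FPKM in the siblings and 30.9, 62.4 and 54.5 FPKM in line 207. Its means of 10.3 ± 3.2 and 49.3 ± 16.4 FPKM (SD, n = 3 each) were 4.8-fold apart (log2 fold change 2.14 ± 0.37 SE; adjusted p = 0.0158). The call was lost without line 207 replicate 2 or 3 (adjusted p from 0.0236 to 0.0628 over the libraries left out). Solyc01g008550, also reductase-like and the most abundant, was at 119, 133 and 119 FPKM in the siblings and 152, 150 and 164 FPKM in line 207, apart but not called (log2 fold change 0.33 ± 0.14 SE; adjusted p = 0.193).

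Cinnamyl alcohol dehydrogenase, the last step to the monomers, had 12 genes, 5 of them tested. None was called by limma; 1 was lower and 0 higher both at an unadjusted p of 0.05 and in the authors' deposited table. All 5 had log2 fold changes below 0 (median -0.54). Family sums were 54.0, 80.3 and 88.7 FPKM in the siblings and 58.3, 58.2 and 32.2 FPKM in line 207, which overlapped, with means 1.5-fold lower in line 207. Solyc01g107590, which made 51.2% to 76.0% of the family in the siblings, was at 27.6, 59.2 and 67.4 FPKM there and at 44.0, 35.9 and 22.2 FPKM in line 207, so the groups overlapped (adjusted p = 0.452).

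Laccases, copper oxidases that can couple lignin monomers in the cell wall, were the family with the most lower calls. Of 55 genes 26 were tested, and 5 were called lower and none higher, against 5.04% lower and 5.01% higher over all tested genes. At an unadjusted p of 0.05, 9 were lower and 1 higher. Summed laccase transcripts were 580, 687 and 455 FPKM in the siblings and 208, 192 and 187 FPKM in line 207. The sums were far apart, at means of 574 ± 116 and 196 ± 11.2 FPKM (SD, n = 3 each), 2.94-fold lower in line 207. By the q-values of the authors' deposited table, 10 laccases were lower and none higher.

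Most of this difference came from genes described as Laccase-22. Their 10 genes summed to 471, 578 and 323 FPKM in the siblings and 123, 127 and 128 FPKM in line 207. The other 45 laccase genes summed to 109, 109 and 132 FPKM in the siblings and 85.2, 64.3 and 58.9 FPKM in line 207, also without overlap but closer. All 9 tested Laccase-22 genes had log2 fold changes below 0, with a median of -1.11; 4 were called lower, and 7 were apart and lower. Among the 17 other tested laccases the median was -0.36, with 1 called lower, 3 apart and lower, and 2 apart and higher. For both kinds, the shares over all tested genes were 5.04% called lower, 17.6% apart and lower and 15.6% apart and higher. Whether the 2 kinds of laccase differed was not tested.

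A single gene, Solyc04g082140, made 40.6%, 52.8% and 43.2% of laccase FPKM in the siblings and 25.1%, 34.3% and 34.2% in line 207. It was at 235, 363 and 197 FPKM in the siblings and 52.2, 65.7 and 64.0 FPKM in line 207. The lowest sibling library was well above the highest line 207 library, and the means of 265 ± 87.2 and 60.6 ± 7.34 FPKM (SD, n = 3 each) were 4.37-fold apart (log2 fold change -2.07 ± 0.25 SE; adjusted p = 0.00588). It kept its call with each library left out (adjusted p up to 0.0282).

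Solyc08g079090, another Laccase-22 gene, was at 83.8, 38.6 and 30.9 FPKM in the siblings and 14.6, 14.1 and 13.0 FPKM in line 207. It was 3.67-fold lower on the means (log2 fold change -1.67 ± 0.38 SE; adjusted p = 0.0372), and lost the call without sibling replicate 2 or any 1 line 207 library (adjusted p from 0.0406 to 0.104). Sibling replicate 1 was high here, and in the libraries of line 207 the values hardly varied. By identifier number it adjoins the CRABS CLAW fragment, whose values are given above.

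Solyc07g052240, also Laccase-22, was at 26.9, 45.7 and 16.6 FPKM in the siblings and 4.92, 3.02 and 5.76 FPKM in line 207. Its 6.5-fold lower mean (log2 fold change -2.38 ± 0.45 SE; adjusted p = 0.0219) kept the call only without sibling replicate 3 among the 6 libraries left out (adjusted p from 0.0303 to 0.0828). Solyc11g062440, described only as laccase, was at 53.2, 25.2 and 31.6 FPKM in the siblings and 15.2, 8.74 and 9.13 FPKM in line 207. It was 3.33-fold lower (log2 fold change -1.62 ± 0.37 SE; adjusted p = 0.0374), and the call was lost with each library left out (adjusted p from 0.0523 to 0.106). Neither gene overlapped between groups.

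Solyc02g080670, the last of the Laccase-22 calls, was at 32.1, 26.4 and 13.4 FPKM in the siblings and 2.16, 0 and 1.58 FPKM in line 207. No linear fold is given against a group near 0; its log2 fold change was -3.55 ± 0.61 SE (adjusted p = 0.0162), -3.87 without line 207 replicate 1 and -3.04 without line 207 replicate 2. The call was lost without sibling replicate 1 or 2 (adjusted p from 0.0306 to 0.0703 over the libraries left out). The 5 Laccase-22 genes not called had log2 fold changes from -1.11 to -0.43.

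**Figure D4:**
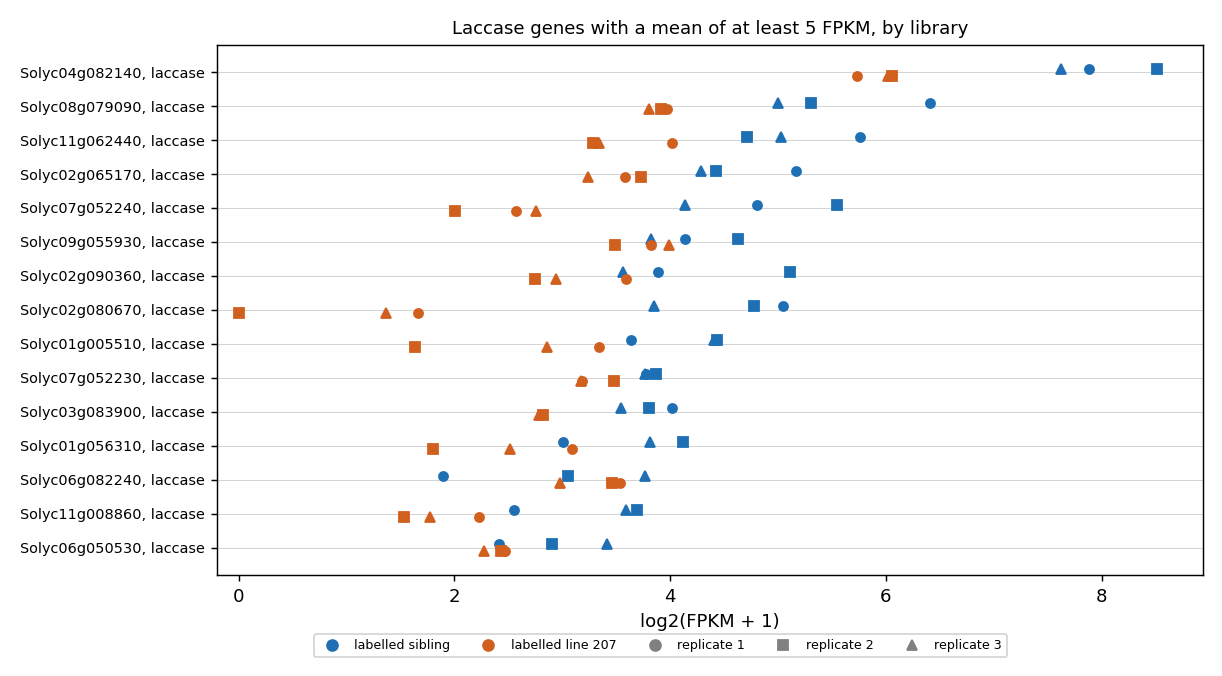
Level of the 15 laccase genes with a mean of at least 5 FPKM in each library as log2(FPKM + 1), ordered by mean, by labelled group (colour) and replicate number (shape). The top gene, Solyc04g082140, is at 197 to 363 FPKM in the siblings and 52.2 to 65.7 FPKM in line 207, and sibling replicate 1 is the highest sibling library for Solyc08g079090, Solyc11g062440 and Solyc02g080670.

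The flavonoid enzymes, from chalcone synthase to the anthocyanidin enzymes, comprised 52 genes, of which 21 were tested, 3 called lower and 2 called higher. Over all tested genes, 5.04% were called lower and 5.01% higher. Chalcone synthase condenses coumaroyl-CoA with malonyl-CoA into the first flavonoid. Of its 8 genes, 4 were at 0 throughout and 2 were tested. Sums were 143, 247 and 382 FPKM in the siblings and 129, 130 and 130 FPKM in line 207, where sibling replicate 1 lay close to line 207.

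Of the 2 tested chalcone synthase genes limma called 1 lower, while the authors' deposited table had both lower; whether the 2 genes differed was not tested. Solyc05g053550 was at 74.6, 131 and 169 FPKM in the siblings and 38.1, 33.3 and 52.6 FPKM in line 207, with no overlap. It fell 3.02-fold, from 125 ± 47.4 to 41.4 ± 10.1 FPKM (SD, n = 3 each; log2 fold change -1.52 ± 0.33 SE; adjusted p = 0.0328), and kept the call only without sibling replicate 1 among the 6 libraries left out (adjusted p from 0.0152 to 0.11). Solyc09g091510 was at 58.2, 114 and 213 FPKM in the siblings and 84.3, 96.2 and 77.2 FPKM in line 207. Those groups overlapped (log2 fold change -0.39 ± 0.43 SE; adjusted p = 0.623; q-value 0.0237 in the authors' deposited table), and the sign turned to 0.0682 without sibling replicate 3. Its share of the family was 40.7% to 55.7% in the siblings and 59.5% to 74.3% in line 207.

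Chalcone isomerase closes the ring to naringenin. Its sums were 242, 410 and 550 FPKM in the siblings and 164, 132 and 168 FPKM in line 207, at means of 401 ± 154 and 154 ± 19.9 FPKM (SD, n = 3 each), 2.6-fold lower. All 4 tested genes of 7 had log2 fold changes below 0 (median -1.34), and 1 was called lower and none higher; at an unadjusted p of 0.05 and in the authors' deposited table, 2 were lower and 0 higher. Solyc05g010320 was at 83.7, 126 and 173 FPKM in the siblings and 41.9, 45.5 and 57.9 FPKM in line 207. It was 2.63-fold lower without overlap (log2 fold change -1.33 ± 0.29 SE; adjusted p = 0.0315), and kept the call only without sibling replicate 1 among the 6 libraries left out (adjusted p from 0.0163 to 0.103).

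The isomerase with the most transcripts, Solyc05g052240, was at 97.9, 252 and 351 FPKM in the siblings and 72.4, 72.8 and 95.5 FPKM in line 207. The gap between sibling replicate 1 and line 207 replicate 3 was narrow, and the gene was not called (log2 fold change -1.36 ± 0.45 SE; adjusted p = 0.105). Without sibling replicate 1 it was called lower, at -1.89 and an adjusted p of 0.0102 (from 0.0102 to 0.263 over the libraries left out). The authors' deposited table gives it a q-value of 0.000439.

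Flavanone 3-hydroxylase and flavonol synthase lead from naringenin to dihydroflavonols and flavonols. Of 9 genes with these words in their descriptions, 4 were tested and none was called by limma or passed an unadjusted p of 0.05. The authors' deposited table had 2 lower. A gene of these steps that is described by other words is not counted here. Solyc02g083860, the hydroxylase with the most transcripts, was at 141, 246 and 331 FPKM in the siblings and 133, 148 and 158 FPKM in line 207. Sibling replicate 1 lay within the line 207 range (log2 fold change -0.63 ± 0.30 SE; adjusted p = 0.252), and without that library the gene was called lower at -0.96 (adjusted p = 0.035, from 0.035 to 0.495 over the libraries left out).

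Dihydroflavonol 4-reductase, which feeds the anthocyanin branch, had 18 genes and 6 tested, none called by limma; 1 was lower and 0 higher at an unadjusted p of 0.05, and so too in the authors' deposited table. Solyc02g089770 was at 8.16, 31.1 and 37.4 FPKM in the siblings and 1.5, 9.18 and 2.93 FPKM in line 207 (log2 fold change -2.27 ± 0.74 SE; adjusted p = 0.103, and 0.0609 to 0.27 with a library left out). Without line 207 replicate 2 its log2 fold change was -2.84 and its mean 11.5-fold lower, against 5.64-fold with all libraries. Line 207 replicate 2 overlapped the siblings. The family as a whole was low, with sums of 29.7, 72.7 and 51.5 FPKM in the siblings and 27.1, 18.3 and 17.3 FPKM in line 207.

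The genes named for anthocyanidin synthesis or reduction moved in both directions. Of 10 genes 5 were tested, with 2 called higher and 1 lower (1 each in the authors' deposited table), and their sums were 280, 357 and 373 FPKM in the siblings and 493, 407 and 375 FPKM in line 207. Solyc11g013110 fell, from 124, 199 and 274 FPKM in the siblings to 74.7, 64.1 and 68.7 FPKM in line 207. It was 2.88-fold lower without overlap (log2 fold change -1.44 ± 0.29 SE; adjusted p = 0.025), and kept the call only without sibling replicate 1 among the 6 libraries left out (adjusted p from 0.00892 to 0.0895).

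Solyc08g006770, described as a fragment of an anthocyanidin synthase, rose. It was at 151, 145 and 92.8 FPKM in the siblings and 401, 331 and 280 FPKM in line 207, 2.6-fold higher without overlap (log2 fold change 1.39 ± 0.24 SE; adjusted p = 0.0165). The call was lost without line 207 replicate 1 or 2 (adjusted p from 0.0263 to 0.0625 over the libraries left out). Solyc10g076670 was listed at 0 FPKM in each sibling library and at 3.82, 2.95 and 1.93 FPKM in line 207 (log2 fold change 1.93 ± 0.46 SE, adjusted p = 0.0444, and 0.0723 to 0.127 with a library left out, lost each time). This gene too passed the filter of 1 FPKM in 3 libraries only through line 207, so its call adds no support for a rise. Anthocyanidin synthase is a 2-oxoglutarate dioxygenase, and descriptions within that large class come from sequence similarity, so these names do not establish the reaction.

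**Figure D5:**
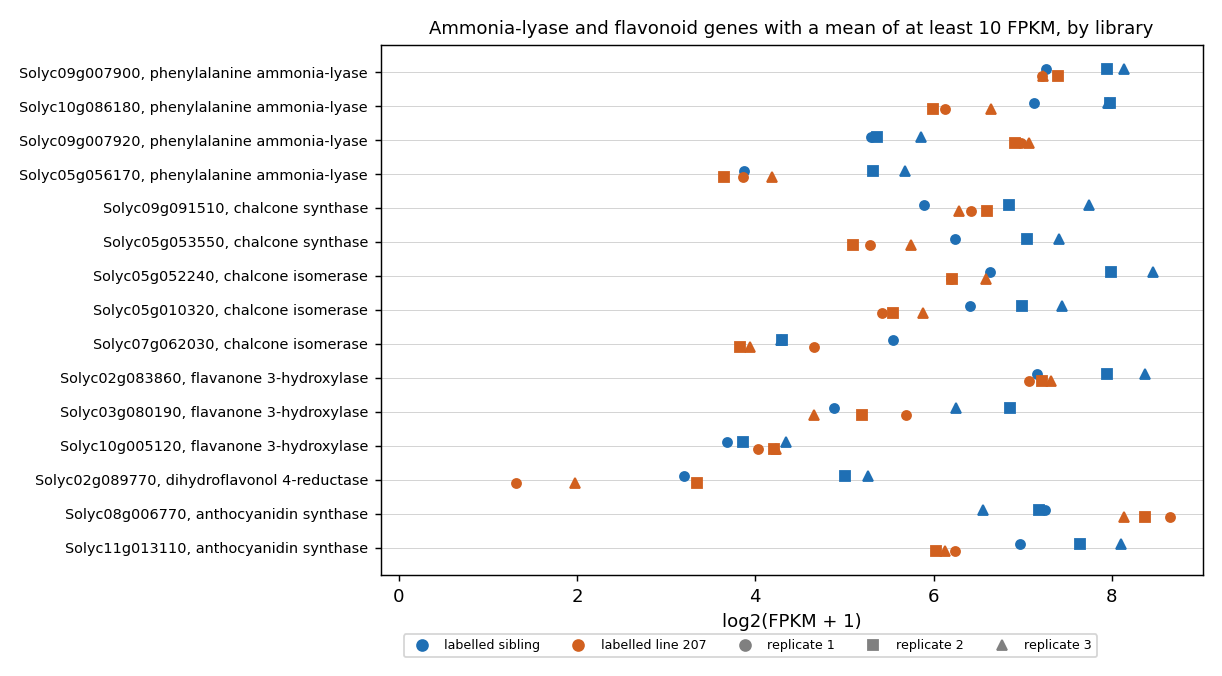
Level of the 15 ammonia-lyase and flavonoid genes with a mean of at least 10 FPKM in each library as log2(FPKM + 1), by labelled group (colour) and replicate number (shape). Sibling replicate 1 (circle) is the lowest sibling library for Solyc05g053550, Solyc05g052240, Solyc05g010320, Solyc02g083860 and Solyc11g013110, and Solyc09g007920 and Solyc08g006770 are the genes with line 207 to the right of all siblings.

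Sibling replicate 1 was the lowest sibling library for many genes of the flavonoid branch, but not for all of them and not only there. It was the highest sibling library for Solyc08g006770. It also had the lowest sibling sums of the ammonia-lyase, ligase, hydroxycinnamoyl transferase and alcohol dehydrogenase families. It was the lowest sibling library for 15 of the 21 tested flavonoid genes and for 9 of the 26 tested laccases. Over all tested members it was the lowest sibling in 49.6%, and over all tested genes in 38.5%. The same library had the highest antenna sum, 18007 FPKM against 10720 and 10513 FPKM in the other siblings. Without it, 6 members were called lower that were not called with all libraries, namely Solyc09g007900 and Solyc05g056170 (ammonia-lyases), Solyc06g068650 (ligase), Solyc03g117600 (shikimate/quinate transferase), Solyc05g052240 and Solyc02g083860. Of these, Solyc05g056170 was at 13.6, 39.1 and 50.4 FPKM in the siblings and 13.5, 11.6 and 17.2 FPKM in line 207. The part of this library's antenna level in these values was not tested.

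The gene lists around the pathway were read in the same way. Of the genes of the shikimate route and aromatic amino acid supply, which deliver phenylalanine, 23 of 30 were tested and 3 were called lower and none higher by limma (median -0.66), 13% of those tested against 10.1% of all tested genes. At an unadjusted p of 0.05 there were 7 lower and 3 higher, and 7 lower and 1 higher by q-value in the authors' deposited table. Solyc11g066890, a prephenate dehydratase, was at 29.2, 50.5 and 50.4 FPKM in the siblings and 11.6, 16.9 and 12.8 FPKM in line 207, without overlap (adjusted p = 0.0224). Another prephenate dehydratase, Solyc06g074530, had means of 29.8 FPKM in the siblings and 11.8 FPKM in line 207 (adjusted p = 0.0337). Solyc01g091190, a 3-phosphoshikimate carboxyvinyltransferase, had means of 71.1 and 40.8 FPKM (adjusted p = 0.0295).

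Class III peroxidases, which share the coupling of lignin monomers with laccases, had 3 lower and 2 higher among 41 tested of 111 (median -0.08). Calls in either direction were thus 12.2%, near the 10.1% of all tested genes; there were 8 lower and 6 higher at an unadjusted p of 0.05, and 5 lower and 4 higher in the authors' deposited table. Of the genes called lower, a pair adjoining by identifier number had the lowest log2 fold changes. Solyc01g006290 was at 140, 194 and 216 FPKM in the siblings and 24.8, 19.1 and 16.2 FPKM in line 207 (adjusted p = 0.00168), and Solyc01g006300 had means of 194 and 39.0 FPKM (adjusted p = 0.00182). Solyc04g071900 rose from a mean of 56.4 to 129 FPKM (adjusted p = 0.0137).

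Dirigent proteins, which guide the coupling of monolignols, had 13 of 18 genes at 0 in all libraries. Of the 4 tested, 1 was called lower, against 5.04% of all tested genes. Of the 8 flavonoid glycosyltransferases 3 were tested and none was called by limma; 1 was lower and 0 higher at an unadjusted p of 0.05 and in the authors' deposited table. The flavonoid 3′,5′-hydroxylases that lead to blue anthocyanins were near 0, Solyc08g083510 at 0 in every library and Solyc08g083520 at no more than 1.09 FPKM.

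Members with neighbouring identifiers were set side by side. Among 11 pairs of tested members of a family whose identifier numbers differ by at most 30, 5 had log2 fold changes of the same sign and 6 of opposite sign, mostly of genes that were not called. The pair Solyc12g096770 and Solyc12g096790 was the only one with both genes called. In the ammonia-lyase pair Solyc09g007900 and Solyc09g007920 the values were -0.50 and 1.48.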

How the data were processed

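RNA from 6 libraries of fruits 2 days post anthesis, 3 labelled RNAi line 207 and 3 labelled nontransgenic sibling, was compared, with groups and replicate numbers from the labels. The authors deposited 1 table of values per gene, read here as FPKM since they are not whole numbers and since Cufflinks, with TopHat 1.3.2, was used per the submitters' processing notes; the sources used here give neither unit nor genome build nor annotation release. This table also holds the authors' q-value for each gene, with 1 where no test was made. Of its 34727 rows, 4 held no values. Total depth is unknown, and relative depth was read from the step between low values. An exact 0 may be a failed estimate: 700 genes, 3 of them members, were listed at 0 in some library and above 20 FPKM in another.

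Log2(FPKM + 1) values of the 15766 genes reaching 1 FPKM in 3 or more libraries were fitted with limma 3.58.1 (R 4.3.3), using a trended empirical Bayes prior, and p-values were adjusted by Benjamini-Hochberg and called at 0.05. The script was checked on simulated data whose within-group spread was set smaller than that of these libraries. That check does not show how many changes are recovered, or falsely called, at the real spread. Log2 fold changes on this scale understate the change of low genes, and linear folds are ratios of group means. Genes named are all called members, the most abundant tested member of each family, the 10 with the smallest p, and Solyc09g007920 and Solyc10g086180; those called without sibling replicate 1 were named after their values were seen. The members and lists were chosen with earlier results of these data known. The list for pathway hydroxylases also caught 2 glucosyltransferases, counted with the glycosyltransferases. Same-numbered libraries did not deviate together, so the replicate number was not used as a block. Alternatives were other pseudocounts, filters, scalings, thresholds and priors, the authors' q-values, the block, and each library left out. The supplied gene table (LA1246 assembly) matched 0 identifiers, so no positions or sequences are given.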

Additional observations from a re-analysis of the deposited data

How the results depend on the processing

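Rescaling by median of ratios or quantiles kept all 21 calls. The count of members called higher, 8, was 5 with a mean of at least 10 FPKM and 2 to 4 with 1 library left out. The count called lower, 13, was 6 with no filter beyond a value above 0, 6 with a prior without trend, 35 by the authors' deposited q-value and 3 to 15 with 1 library left out. Over all genes, 790 higher and 795 lower became 1293 and 1430 at an adjusted p of 0.1, 1226 and 1496 by the authors' deposited q-value, and 310 to 660 and 282 to 559 with 1 library left out. The members' median log2 fold change, -0.52, was -0.70 with a pseudocount of 0.1, -0.30 with 5 and -0.32 with no filter, and -0.56 to -0.46 with 1 library left out. Signs turned for Solyc07g005760 without sibling replicate 1 (0.0895, and -0.29 to 0.0895 over the libraries left out) and Solyc09g091510 without sibling replicate 3 (0.0682, and -0.86 to 0.0682). The causes were not tested, except that fewer genes are tested at a higher minimum and fewer libraries enter when 1 is left out.

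With the replicate number as a block, 4 members were called higher and 10 lower, 14 of the 21 calls remained, and 486 higher and 408 lower were called over all genes. Deviations of same-numbered libraries correlated at 0.00397, -0.00806 and -0.0105, and not every library correlated best with its own number, so the numbers do not pair the samples. By the rough depth estimates the libraries of line 207 were shallower, which would limit the values of genes near 1 FPKM most.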
